A study of Mus musculus with 21 samples.

Results

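The Hox genes were taken as every row of the deposited gene table whose symbol is Hox, a cluster letter from a to d and a number. This gave 39 genes of 24454 in the table, which are 11 HoxA genes on chromosome 6, 10 HoxB genes on chromosome 11, 9 HoxC genes on chromosome 15 and 9 HoxD genes on chromosome 2 of mm10. RNA sequencing had been run on 21 libraries of mouse embryonic fibroblasts (MEFs, connective tissue cells grown from mouse embryos), with 3 libraries in each of 7 groups. All cells carried floxed alleles, meaning alleles flanked by sites that the recombinase Cre cuts, and all were infected with an adenovirus and harvested 96 h later.

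In the Rtel1f/f line both copies of Rtel1, a helicase gene that acts in telomere maintenance and DNA replication, were floxed. Its groups were infected with Ad-GFP, which expresses only a green marker (Rtel1 +GFP), with Ad-Cre (Rtel1 +Cre), or with Ad-GFP followed by 10 µM TMPyP4, a porphyrin that binds G-quadruplex (G4) DNA, a folded form of guanine-rich sequence, for the last 48 h (Rtel1 TMPyP4). Rtel1f/f cells transduced with a vector for the RTEL1 mutant C1252A/C1255A were infected with Ad-GFP (Rtel1 CA +GFP) or Ad-Cre (Rtel1 CA +Cre). The Trf1f/f line had floxed alleles of Terf1, the gene of a telomere-binding shelterin protein, and was infected with Ad-GFP (Terf1 +GFP) or Ad-Cre (Terf1 +Cre). Each genotype was 1 line as far as the labels show, so genotype, embryo of origin and culture history cannot be told apart between the lines. The labels call the 3 libraries of a group biological replicates without saying that they came from separate animals or cultures, so p-values measure the spread between these libraries.

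Hox genes encode homeodomain transcription factors, and in mammals they sit in clusters, named A to D, that arose by duplication. Genes of matching position in the clusters form a paralog group, numbered upwards from the 3′ end to the 5′ end, and along the embryo 3′ genes are used more towards the head and 5′ genes more towards the tail. In the limb bud the 5′ HoxA and HoxD genes pattern the upper arm, forearm and hand in turn, with the last paralog group acting in the hand and foot plate. Fibroblasts cultured from different body sites keep a Hox pattern that reflects the site, and Polycomb and Trithorax proteins, which silence or maintain transcription through chromatin, are known to hold it.

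The libraries held between 32069888 and 51938593 counts. Rtel1, given as CPM scaled with TMM factors (normalized CPM, each gene's share of a library's counts), lay between 26.8 and 31.9 in the Rtel1 +Cre libraries and between 59.1 and 66.2 in the Rtel1 +GFP libraries. In the Rtel1 CA groups it lay between 253 and 338. Terf1 lay between 0.0268 and 0.110 CPM in the Terf1 +Cre libraries and between 27.9 and 30.3 in Terf1 +GFP. Of 9 fibroblast markers none was at 0 in a whole group, although Thy1, a surface protein of many fibroblasts, had a mean of 0.043 CPM in Rtel1 +GFP against 259 CPM in Terf1 +GFP. Summed epithelial, endothelial and blood markers reached at most 3.45, 4.45 and 6.38 CPM in any library. The summed neural and neural crest markers were far higher and differed between groups, with 246 to 349 CPM in Rtel1 +GFP, 448 to 519 in Rtel1 +Cre, 344 to 376 with TMPyP4, 361 to 437 in Rtel1 CA +GFP and 150 to 163 in Terf1 +GFP. Of the 5 markers, Nes, an intermediate filament gene, made up most of the sum, Foxd3 had 0 counts in each group and Sox10 0 counts in 4 of the 7. Their part in the Hox differences was not tested. The 3 Rtel1 +GFP libraries stood apart from the other 12 of the Rtel1 line. On the first principal component of 11840 genes (58.5% of the variance) they lay between 49.7 and 66.3, and the other 12 lay between −43.6 and 24.4. The same held over 23 Hox genes, where the Rtel1 +GFP libraries lay between 1.45 and 2.23 on the first component (52.1% of the variance) and the others between −1.39 and 0.594. The comparisons of the lines, of Rtel1 +Cre and of TMPyP4 with Rtel1 +GFP were therefore also made with Rtel1 CA +GFP as the control, for the treatments a choice made after the data were seen.

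Of the 39 Hox genes, 36 passed the filter on low counts, among 13719 genes tested. Hoxb1, Hoxb13 and Hoxd1 did not pass. When each line was filtered alone, 25 Hox genes passed in both lines, 8 only in the Terf1 line and 3 only in the Rtel1 line. Genes that passed through 1 line alone had to differ between the lines, so counts over the genes tested describe them and give no support. Hoxa13, Hoxd1, Hoxd3 and Hoxd12 had 0 counts in every Rtel1-line library, and Hoxb1 and Hoxc11 had 0 counts in every Terf1-line library. In bulk RNA, fewer cells expressing a gene and less RNA per cell cannot be told apart.

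Compared per transcript length, by the deposited TPM, the clusters contributed differently to the Hox RNA of each line. In Rtel1 +GFP the HoxB genes made up 45.1% ± 2.17 (SD, n = 3) of the summed Hox TPM, HoxC 37.6% ± 0.919, HoxA 17.1% ± 1.24 and HoxD 0.229% ± 0.0214. In Terf1 +GFP HoxD made up 41.4% ± 2.01 (SD, n = 3), HoxA 24.7% ± 1.2, HoxC 16.9% ± 0.621 and HoxB 16.9% ± 0.402. The Rtel1 line thus had Hox RNA mainly of HoxB and HoxC, and the Terf1 line mainly of HoxD and HoxA. HoxD was between 0.111% and 0.292% in the other Rtel1-line groups and at 40.1% in Terf1 +Cre, and HoxB was between 49.2% and 54.6% in the other Rtel1-line groups.

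The lines also differed along the clusters. Paralog groups 9 to 13 together made up 48.4% ± 2.24 (SD, n = 3) of the Hox TPM in Rtel1 +GFP and 57.8% ± 2.10 in Terf1 +GFP. Paralog groups 11 to 13 alone made up 1.29% ± 0.104 in Rtel1 +GFP and 39.0% ± 1.33 in Terf1 +GFP. The Rtel1 line reached its highest levels in paralog group 9 (36.8% of the Hox TPM in Rtel1 +GFP) and dropped sharply beyond group 10, while group 13 was the largest in Terf1 +GFP (30.1%).

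**Figure D1:**
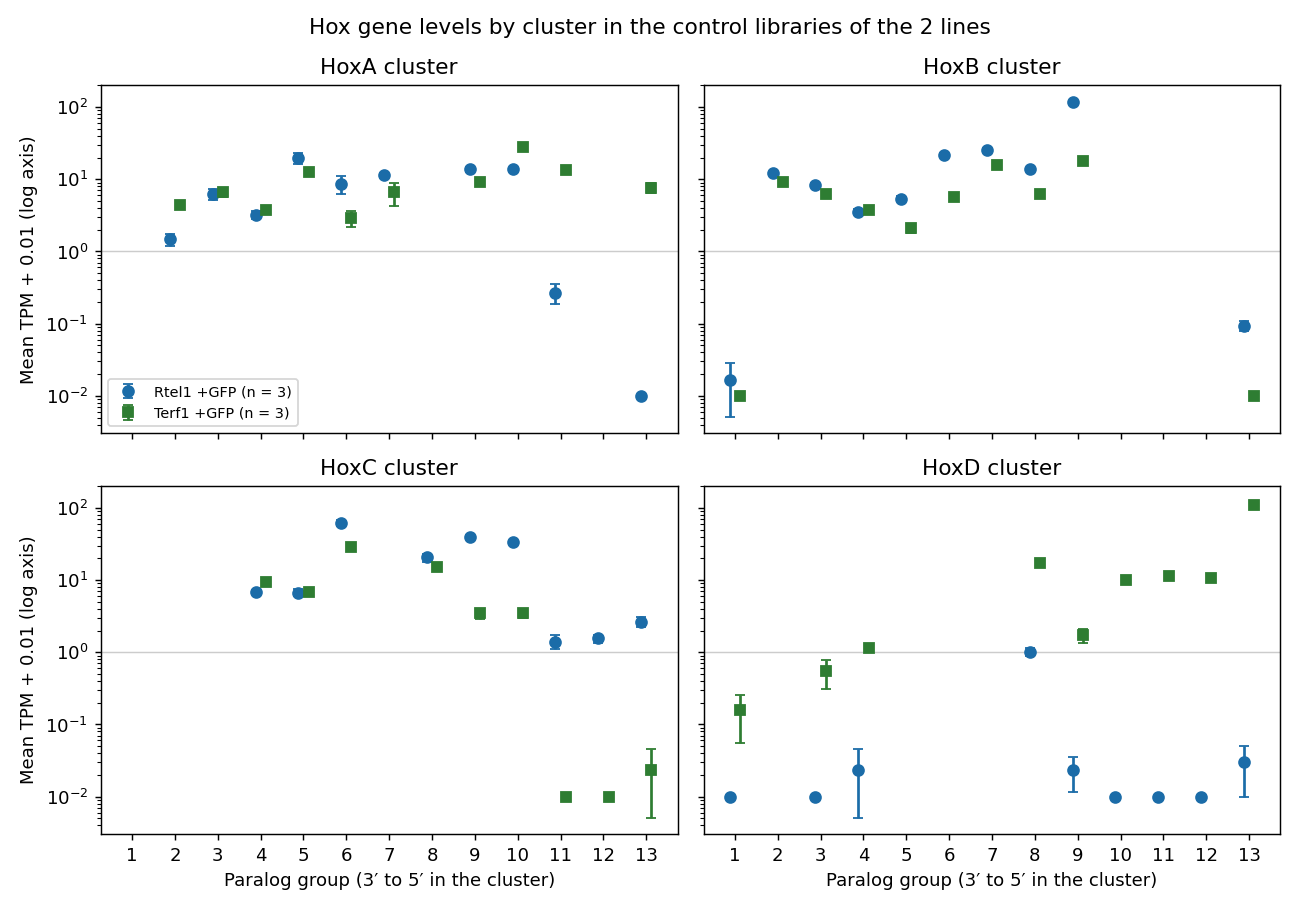
Mean TPM plus 0.01, on a log axis, of 38 Hox genes in the Rtel1 +GFP (circles) and Terf1 +GFP (squares) libraries, 1 panel per cluster, against the paralog group. Bars are SD over 3 libraries, cut off where they would reach 0, and the grey line marks 1 TPM. The Terf1 line lies above the Rtel1 line at every HoxD gene, at Hoxa11 and at Hoxa13, and below it from Hoxc9 to Hoxc13.

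The order of the levels in each line had a different gene at its head. In Rtel1 +GFP Hoxb9, a thoracic gene, had 117 ± 4.88 TPM (SD, n = 3), followed by Hoxc6 with 61.7 ± 6.30, Hoxc9 with 39.2 ± 2.53 and Hoxc10 with 33.3 ± 0.596. The next in order were Hoxb7 (25.8 ± 1.72 TPM), Hoxb6 (21.9 ± 1.54), Hoxc8 (20.6 ± 2.60) and Hoxa5 (19.5 ± 3.35), of which Hoxb6, Hoxc8 and Hoxa5 lay within their spread of each other. Hoxb9 was the highest Hox gene in all 5 Rtel1-line groups, with 25.4% to 33.6% of the Hox TPM. In Terf1 +GFP Hoxd13, which patterns the digits and the genital tubercle, had 111 ± 10.0 TPM (SD, n = 3). It was followed by Hoxc6 with 28.4 ± 0.877 and Hoxa10 with 28.3 ± 2.55, which did not differ beyond their spread.

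The first comparison asked which Hox genes differed between the lines before any gene was deleted. In Terf1 +GFP against Rtel1 +GFP, edgeR's quasi-likelihood test called 29 of the 36 Hox genes at an adjusted p of at most 0.01, 13 higher and 16 lower in the Terf1 line, or 80.6%, where 54.9% of all 13719 genes were called (30.3% higher and 24.5% lower). The 29 include the 8 genes that passed the filter only in the Terf1 line (Hoxa13 and the HoxD genes but Hoxd8). They also include the 3 that passed only in the Rtel1 line (Hoxc11 to Hoxc13). Both sets had to differ between the lines, so the share called gives no support. All 8 HoxD genes tested were higher in the Terf1 line, and the HoxB and HoxC genes called (6 of 8 and 7 of 9) were all lower. HoxA was split, with 5 of 11 higher (Hoxa2, Hoxa10, Hoxa11 and Hoxa13 among them) and 3 lower (Hoxa5, Hoxa6 and Hoxa9). The median log2 fold change over the 36 genes was −0.14, beside 0.02 over all genes tested. Against Rtel1 CA +GFP the counts were 13 higher and 11 lower, where 58.5% of all genes were called (31.9% higher and 26.6% lower). The Terf1 +GFP libraries are shared by both comparisons.

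Among the HoxD genes, Hoxd13 had 117, 134 and 142 normalized CPM in the 3 Terf1 +GFP libraries and 0.0445, 0 and 0.0200 in the 3 Rtel1 +GFP libraries (2, 0 and 1 counts). The ratio of the counts was 6252, with an exact 95% interval of 2139 to 30321 that covers counting error only. Hoxd13 stayed high in all 3 Terf1 +Cre libraries (118, 133 and 113 CPM). With the Rtel1 CA +GFP libraries, which held 0.151, 0.0814 and 0 CPM, its log2 fold change was 10.65 ± 0.32 (SE, adjusted p = 1.1e-13 by edgeR). Across all groups, the highest Rtel1-line library held 0.151 CPM of Hoxd13 and the lowest Terf1-line library 113 CPM.

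Hoxd11 and Hoxd12, which act with Hoxd13 in the distal limb, followed the same division. Hoxd11 had 18.6, 19.8 and 18.8 CPM in Terf1 +GFP and 0 counts in the Rtel1 +GFP libraries, which makes it at least 913-fold higher when the 0 counts are set to 3 over the group (adjusted p = 6e-10 by edgeR). Hoxd12 had 13.8, 12.2 and 11.9 CPM against 0 counts, at least 605-fold higher (adjusted p = 2.99e-09). Hoxd10, with 7.98, 8.39 and 9.43 CPM against 0 counts, was at least 410-fold higher (adjusted p = 8.74e-10). The spans of Hoxd10 and Hoxd11 overlap on the same strand, so reads could be divided between them by the counting.

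Within the Terf1 line Hoxd1, Hoxd3, Hoxd4 and Hoxd9 were at lower levels than Hoxd8 and than Hoxd10 to Hoxd13. Hoxd9 had 1.46, 1.47 and 2.08 CPM against 2 counts in all in Rtel1 +GFP, a ratio of 119 (counting interval 32.6 to 991). Hoxd4 had 1.23, 1.40 and 1.49 CPM, also against 2 counts, a ratio of 98.4 (26.8 to 819). Hoxd3, whose span contains Hoxd4, had 0.649, 0.483 and 1.09 CPM against 0 counts, at least 35.0-fold higher. Hoxd1 did not pass the filter and held 1, 8 and 7 counts in Terf1 +GFP. Hoxd8 was the only HoxD gene well above 0 in the Rtel1 line, with 0.757, 0.863 and 0.801 CPM in Rtel1 +GFP against 13.1, 14.2 and 15.1 CPM in Terf1 +GFP (log2 fold change 4.13 ± 0.18, SE, adjusted p = 9.71e-13 by edgeR). The level per length within HoxD thus had its peak at Hoxd13 (111 TPM) and a second one at Hoxd8 (17.4 ± 1.33 TPM), with Hoxd9 between them at 1.70 ± 0.380.

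The 5′ HoxA genes moved with the 5′ HoxD genes across the lines. Hoxa13, the HoxA partner of Hoxd13 in the hand plate, had 5.22, 4.28 and 3.90 CPM in Terf1 +GFP and 0 counts in all 15 Rtel1-line libraries, and was at least 214-fold higher than in Rtel1 +GFP (adjusted p = 1.98e-07 by edgeR). Hoxa11, a forearm gene, had 13.3, 15.8 and 14.9 CPM against 0.200, 0.247 and 0.381 CPM (log2 fold change 5.71 ± 0.23, adjusted p = 2.81e-13). Hoxa10, a gene of the upper leg and uterus, had 26.4, 32.8 and 28.9 CPM against 14, 13.7 and 15.2 CPM (1.04 ± 0.13, adjusted p = 1.07e-06). The step between the lines grew towards the 5′ end of HoxA, and Hoxa9, the next gene in the 3′ direction, was lower in the Terf1 line (−0.53 ± 0.14, adjusted p = 0.0032). The Hoxa9 call was lost without 4 of the 6 libraries compared, each left out alone (Rtel1 +GFP replicate 2 or 3, Terf1 +GFP replicate 1 or 2), with the difference between −0.63 and −0.43 over all 6. Against Rtel1 CA +GFP Hoxa5, Hoxa6 and Hoxa9 were not called, and Hoxa3 was higher in the Terf1 line (1.05 ± 0.17).

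Hoxa13 and Hoxd13 are shown with their promoters because they are the paralog group 13 genes of the HoxA and HoxD clusters, the limb-end genes that were at or near 0 counts in the Rtel1 line and present in the Terf1 line. The sequences are RefSeq's on GRCm38.p6, from 250 bases before to 50 bases after the annotated start, 5′ to 3′ on the gene's strand: chr6:52260831-52261130 on the minus strand for Hoxa13 and chr2:74667975-74668274 on the plus strand for Hoxd13. Capitals mark non-overlapping matches to a G4 pattern of 4 runs of GGG with 1 to 7 bases of any kind between runs, or the same pattern in C for the other strand.
Hoxa13: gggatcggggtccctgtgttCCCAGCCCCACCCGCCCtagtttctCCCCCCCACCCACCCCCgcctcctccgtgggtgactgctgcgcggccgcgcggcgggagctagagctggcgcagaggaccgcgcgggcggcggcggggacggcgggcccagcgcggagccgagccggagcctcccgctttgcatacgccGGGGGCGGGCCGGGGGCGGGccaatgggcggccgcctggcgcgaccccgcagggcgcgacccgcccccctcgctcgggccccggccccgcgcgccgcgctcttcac
Hoxd13: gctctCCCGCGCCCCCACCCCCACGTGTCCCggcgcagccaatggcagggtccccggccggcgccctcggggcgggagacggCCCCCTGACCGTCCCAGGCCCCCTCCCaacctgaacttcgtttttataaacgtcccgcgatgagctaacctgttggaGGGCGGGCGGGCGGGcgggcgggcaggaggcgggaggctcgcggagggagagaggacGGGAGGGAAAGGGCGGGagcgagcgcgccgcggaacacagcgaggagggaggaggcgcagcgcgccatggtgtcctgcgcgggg
Promoters were found for 22 of the 39 Hox genes (24 windows, since Hoxa10 and Hoxd11 have 2 each). The pattern was present on either strand in 7 of the 24 windows (29.2%) and in 18.6% of the 32851 windows of all genes, whose median GC content was 52.7% against 57.7% for the Hox windows. The windows with a match belonged to Hoxa6, Hoxa10, Hoxa13, Hoxb1, Hoxd9, Hoxd12 and Hoxd13. A match is a match of letters only.

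The HoxC genes of paralog groups 9 to 13 had the opposite direction to HoxD. Hoxc9, a thoracic gene, had 28.6, 31.1 and 31.8 CPM in Rtel1 +GFP and 3.13, 2.53 and 2.46 CPM in Terf1 +GFP (log2 fold change −3.49 ± 0.16, SE, adjusted p = 1.45e-12 by edgeR). Hoxc10, a gene of the hindlimb and lumbar region, had 28.9, 28.7 and 29.7 CPM against 3.27, 2.62 and 3.25 CPM (−3.26 ± 0.12, adjusted p = 4.3e-14). For both, every Terf1-line library lay below every Rtel1-line library.

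The 5′ end of HoxC was at low levels in the Rtel1 line and at or near 0 counts in the Terf1 line. Hoxc13, known for its role in hair and nails, had 3.47, 2.90 and 2.62 CPM in Rtel1 +GFP and 2 counts in all in Terf1 +GFP, a ratio of 189 (counting interval 52.1 to 1568). Hoxc11 and Hoxc12 had means of 0.522 ± 0.1 and 0.521 ± 0.0541 CPM (SD, n = 3) in Rtel1 +GFP and 0 counts in Terf1 +GFP, at least 22.1-fold lower each. Against Rtel1 CA +GFP the bounds fell to 4.66 for Hoxc11 and 2.66 for Hoxc12, and the Hoxc12 difference was not called. Among the 3′ HoxC genes, Hoxc6 was lower in the Terf1 line (−1.10 ± 0.08), Hoxc8 slightly lower (−0.42 ± 0.08), and Hoxc4 and Hoxc5 were not called in either comparison of the lines.

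In HoxB the gap lay at Hoxb9. It had 157, 141 and 148 CPM in Rtel1 +GFP and 21.6, 22.3 and 25.9 CPM in Terf1 +GFP (log2 fold change −2.68 ± 0.09, SE, adjusted p = 2.3e-14 by edgeR). Hoxb6 (−1.91 ± 0.12), Hoxb5 (−1.34 ± 0.14), Hoxb8 (−1.13 ± 0.09) and Hoxb7 (−0.71 ± 0.11) were lower by less, and all 5 were called against Rtel1 CA +GFP too. Hoxb2 and Hoxb4, hindbrain and neck genes, were not called. Hoxb3 was lower against Rtel1 +GFP (−0.44 ± 0.11) but not called against Rtel1 CA +GFP, and with the +Cre libraries of both lines its difference was 0.31 (adjusted p = 0.017). Hoxa5 likewise had −0.60 ± 0.10 in the first comparison, was not called against Rtel1 CA +GFP, and had 0.079 with the +Cre libraries (adjusted p = 0.506). Hoxa6 had −1.56 in the first comparison and was not called against Rtel1 CA +GFP. With the +Cre libraries the Hoxa6 difference was −0.066 (adjusted p = 0.875 by edgeR).

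The line difference was recomputed with libraries that the first comparison had not used. With Terf1 +Cre against Rtel1 +Cre, 27 Hox genes were called, 13 higher and 14 lower, where 59.6% of all genes were called. Of the 29 genes called in the +GFP libraries, 24 were called with the same direction in the +Cre libraries. They included the 8 HoxD genes, Hoxa10, Hoxa11, Hoxa13, Hoxc9, Hoxc10, Hoxc13 and Hoxb5 to Hoxb9. Of the 24 genes, Hoxa13, Hoxc11, Hoxc13 and the HoxD genes but Hoxd8 passed the filter through 1 line alone. Those genes had to differ between the lines, so their repeated calls give no support.

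**Figure D2:**
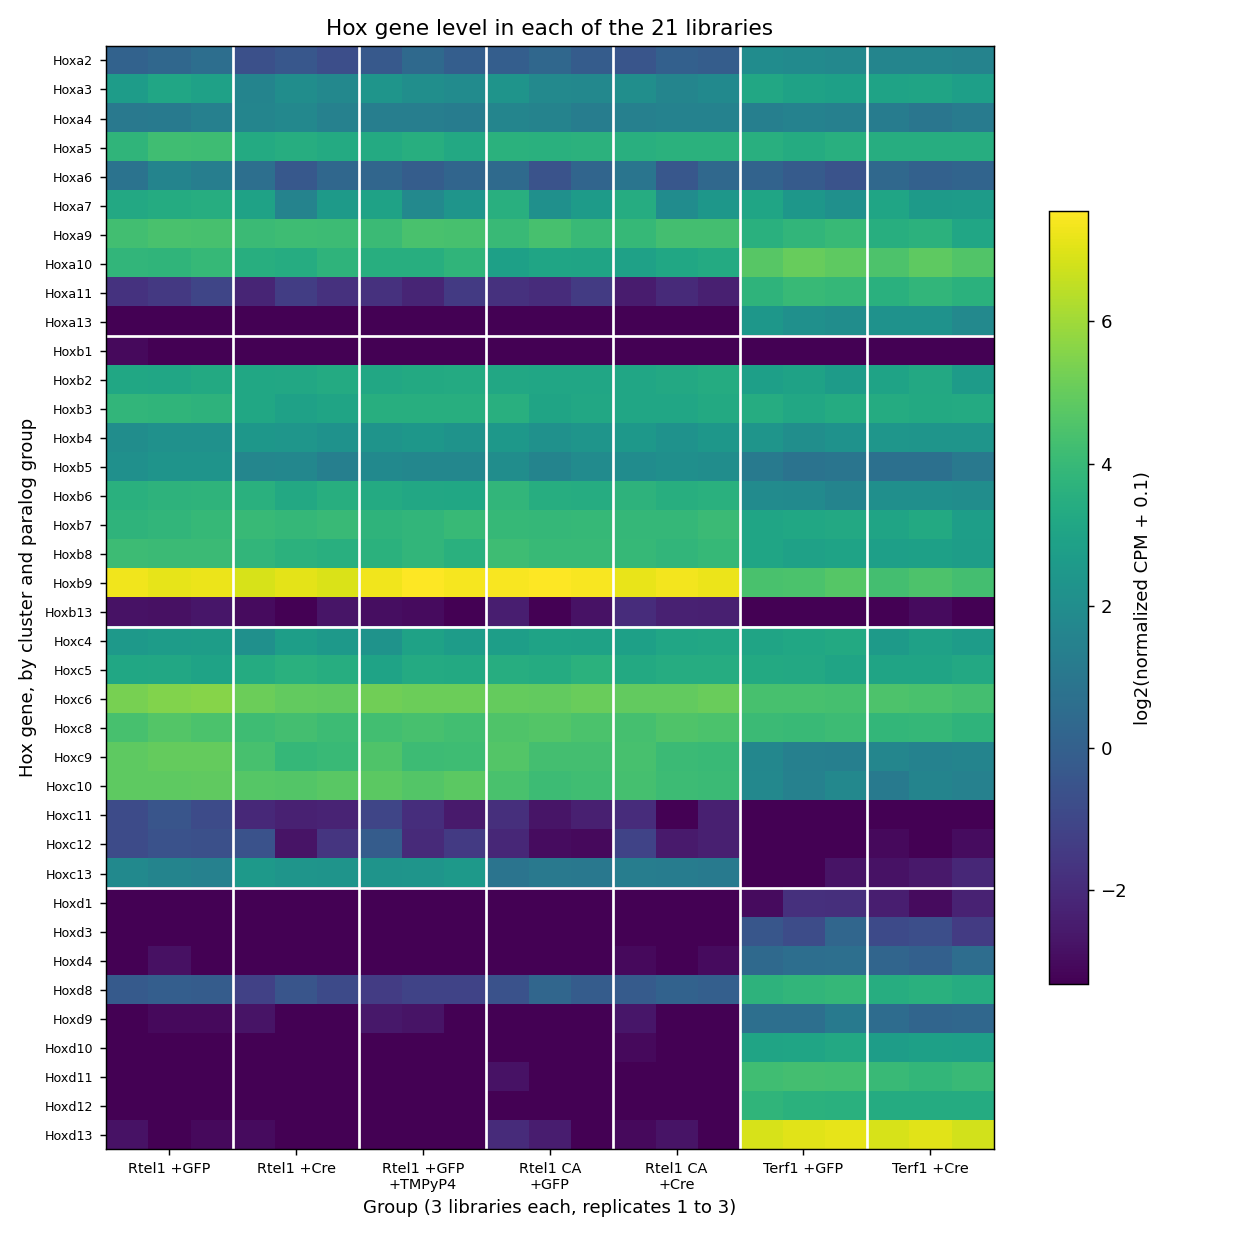
Level of 38 Hox genes (rows, by cluster and paralog group) in each of the 21 libraries (columns, 3 per group), as log2 of normalized CPM plus 0.1. The 2 lines differ across the whole HoxD block, at Hoxa11 and Hoxa13 and from Hoxc9 to Hoxc13, while the treated and untreated groups of a line look alike at this scale.

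Genes that work with Hox proteins or mark body regions were taken from fixed lists. Of 9 TALE cofactors, the homeodomain partners that help Hox proteins bind DNA, 4 were higher and 3 lower in Terf1 +GFP than in Rtel1 +GFP, led by Meis1 (log2 fold change 2.14 ± 0.09, SE, 22.4 against 5.08 CPM) and Pknox2 (−1.38 ± 0.09, 5.53 against 14.4 CPM). Of 32 limb and axial regional factors, 21 were tested, 10 were higher and 7 lower, beside 54.9% of all genes called (30.3% higher and 24.5% lower). Tbx5, which marks the forelimb, had a mean of 15.0 CPM in Terf1 +GFP and 0.00668 CPM in Rtel1 +GFP, whereas the hindlimb genes Tbx4 and Pitx1 did not pass the filter and had group means of at most 0.169 CPM. Pax9, a gene of the sclerotome and limb, was lower (−2.75 ± 0.12, 4.64 against 31.1 CPM). Of 17 Polycomb genes 3 were higher and 8 lower, with Bmi1 (0.61 ± 0.11) and Cbx7 (−2.20 ± 0.10) at the ends, and of 10 Trithorax genes 0 were higher and 4 lower, led by Men1 (−0.96 ± 0.22). Bmi1 and Men1 were not called against Rtel1 CA +GFP. With that control, where 31.9% of all genes were higher and 26.6% lower, 6 TALE cofactors were higher and 2 lower, 12 limb and axial factors higher and 4 lower, 2 Polycomb genes higher and 6 lower, and 0 Trithorax genes higher and 4 lower. The lists were put together with earlier results of these data known.

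Retinoic acid, a vitamin A derivative that induces 3′ Hox genes in the embryo, had 15 listed genes, of which 14 were tested, 6 were higher and 2 lower in Terf1 +GFP, beside 30.3% and 24.5% of all genes, and 9 were higher and 1 lower against Rtel1 CA +GFP. Crabp1, a retinoic acid binding protein, had the largest rise (6.87 ± 0.17, 184 against 1.58 CPM). Crabp1 differed within the Rtel1 line as well, with a mean of 39.7 CPM in Rtel1 CA +GFP. Of 22 RNAs transcribed inside or beside the clusters, 14 were in the table and 10 were tested, with 3 higher and 1 lower against either control. Hoxa11os, antisense to Hoxa11, had 14.4 CPM in Terf1 +GFP and 0.111 in Rtel1 +GFP, and Hottip, which lies beyond Hoxa13, had 1.25 CPM and 0 counts. Gm53 was the cluster RNA that was lower (−3.19 ± 0.50, 0.476 against 4.40 CPM). Of 12 genes tested that flank the clusters, 6 were higher and 4 lower, and against Rtel1 CA +GFP 2 were higher and 4 lower. Evx2, the neighbour of Hoxd13 outside the cluster, had 3.57 CPM in Terf1 +GFP and 0 counts in Rtel1 +GFP, while Lnp and Mtx2, further along chromosome 2 on either side, were higher by 0.46 ± 0.11 and 0.49 ± 0.11 on the log2 scale, and were not called against Rtel1 CA +GFP.

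The transduced mutant line was compared with the parental line before Cre. In Rtel1 CA +GFP against Rtel1 +GFP, 2 of 36 Hox genes were higher and 11 lower, or 36.1%, where 44.7% of all genes were called (22.6% higher and 22.1% lower). Hoxc5 was among the higher genes (log2 fold change 0.37 ± 0.11, SE, adjusted p = 0.00639 by edgeR). The largest decreases among genes above 1 CPM were those of Hoxa6 (−1.22 ± 0.32), Hoxa3 (−0.95 ± 0.17), Hoxa10 (−0.88 ± 0.13), Hoxc13 (−0.68 ± 0.18), Hoxc10 (−0.61 ± 0.10) and Hoxc9 (−0.52 ± 0.14). Hoxa10 had 7.08, 8.30 and 8.04 CPM in Rtel1 CA +GFP and 14, 13.7 and 15.2 in Rtel1 +GFP, with no overlap. Hoxa5, Hoxb3, Hoxc6, Hoxc11 and Hoxc12 were also lower. A difference between these control groups thus met 13 Hox genes. There were 7 without Rtel1 +GFP replicate 2 (35.2% of all genes) and 8 without Rtel1 CA +GFP replicate 3 (37.5%).

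Loss of Rtel1 was compared next. In Rtel1 +Cre against +GFP, 16 of the 36 Hox genes were called, 4 higher and 12 lower, or 44.4%, where 43% of all genes were called (22% higher and 21% lower). The 36 include 8 genes that passed the filter only through the Terf1 line, with at most 7 counts in any Rtel1-line library, and none of the 8 was called in a comparison within the Rtel1 line. Of the genes that passed in the Rtel1 line alone, 16 of 28 Hox genes (57.1%) and 44.8% of all 13036 were called for Rtel1 +Cre, and for Rtel1 CA +GFP against Rtel1 +GFP 13 of 28 (46.4%) and 46.6%. Without Rtel1 +GFP replicate 2 the count was 10, where 34% of all genes were called. With DESeq2 the count was 13, where 45% of all genes were called. The median log2 fold change over the 36 genes was −0.27, beside −0.03 over all genes tested. Of 21 genes of paralog groups 1 to 8, 10 were lower and 3 higher, and of 15 of groups 9 to 13, 2 were lower and 1 higher. Of the 8 genes that passed through the Terf1 line alone, 6 are in groups 9 to 13, so that 19 and 9 genes remain that passed in the Rtel1 line. The 2 sides of the clusters were not tested against each other.

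Hoxa3, which patterns the neck and thymus, had 6.39, 8.47 and 7.41 CPM in Rtel1 +GFP and 2.94, 3.87 and 3.30 CPM in Rtel1 +Cre (log2 fold change −1.14 ± 0.17, SE, adjusted p = 2.05e-05 by edgeR). Hoxa2, a gene of the branchial arches, had 0.979, 1.13 and 1.44 CPM against 0.536, 0.670 and 0.519 CPM (−1.04 ± 0.21, adjusted p = 0.000461). Hoxa6 had 1.67, 2.88 and 2.40 CPM against 1.44, 0.695 and 1.15 CPM (−1.08 ± 0.32, adjusted p = 0.00882). In each of the 3 genes the groups did not overlap, and the margin was narrowest for Hoxa6. The span of Hoxa3 contains Hoxa4, Hoxa5 and Hoxa6, so reads there could be divided between genes.

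Hoxc9 had 20.97, 15.1 and 16.5 CPM in Rtel1 +Cre against 28.6, 31.1 and 31.8 CPM in Rtel1 +GFP (−0.80 ± 0.14, adjusted p = 0.000113 by edgeR). Hoxb3, a hindbrain and neck gene, had 8.74, 7.42 and 7.97 CPM against 14, 13.8 and 12.9 CPM (−0.75 ± 0.11, adjusted p = 1.1e-05). Hoxa5, which acts in lung and neck development, had 9.95, 10.9 and 9.80 CPM against 13.7, 18.5 and 17.9 CPM (−0.71 ± 0.10, adjusted p = 1.2e-05). The falls ranged from 0.71 to 1.14 on the log2 scale for these 6 genes. Hoxc11, Hoxd8, Hoxb5, Hoxc6, Hoxb8 and Hoxc8 were lower as well, from −2.13 for Hoxc11, which had 6, 4 and 4 counts in the Rtel1 +Cre libraries, to −0.30 for Hoxc8. The calls of Hoxa6, Hoxc8, Hoxc11 and Hoxd8 were each lost in 4 of the 6 fits that left out 1 library. The Hoxc8 call was also lost in 4 of 5 alternatives of method, DESeq2 among them, and the Hoxc11 call under DESeq2.

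Of the genes that rose, Hoxc13 had 5.59, 4.96 and 4.86 CPM against 3.47, 2.90 and 2.62 CPM (0.78 ± 0.18, adjusted p = 0.00109 by edgeR). Hoxa4 (0.44 ± 0.13, adjusted p = 0.00793) and Hoxc5 (0.37 ± 0.11, adjusted p = 0.00682) rose by less. The Hoxa4 call was lost in 4 of the 6 fits that left out 1 library and the Hoxc5 call in 5 of the 6. The Hoxa4 call was also lost in 4 of 5 alternatives of method, DESeq2 among them. The most abundant Hox gene, Hoxb9, had 120, 138 and 123 CPM against 157, 141 and 148 CPM (−0.23 ± 0.08, adjusted p = 0.0289), and was not called.

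With Rtel1 CA +GFP as the control, 6 Hox genes were called for Rtel1 +Cre, 3 higher and 3 lower, where 7.76% of all genes were called. Of the 16 genes above, 3 were among them with the same direction, namely Hoxc13 (1.46 ± 0.18), Hoxb8 (−0.37 ± 0.09) and Hoxc8 (−0.35 ± 0.08). With Rtel1 +GFP as the control the Hoxc8 call did not hold under DESeq2. Hoxa10 (0.57 ± 0.13), Hoxc10 (0.44 ± 0.10) and Hoxb9 (−0.49 ± 0.08) were called only with this control. The differences of Hoxa6, Hoxc5 and Hoxc11 changed sign, to 0.15, −0.0016 and 0.09. Summed fibroblast markers were 13062 to 13961 CPM in Rtel1 +GFP, 4303 to 6628 in Rtel1 +Cre and 4981 to 8006 in Rtel1 CA +GFP, with 7 of the 9 markers lower and 1 higher in Rtel1 +Cre against +GFP; their part in the Hox differences was not tested.

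**Figure D3:**
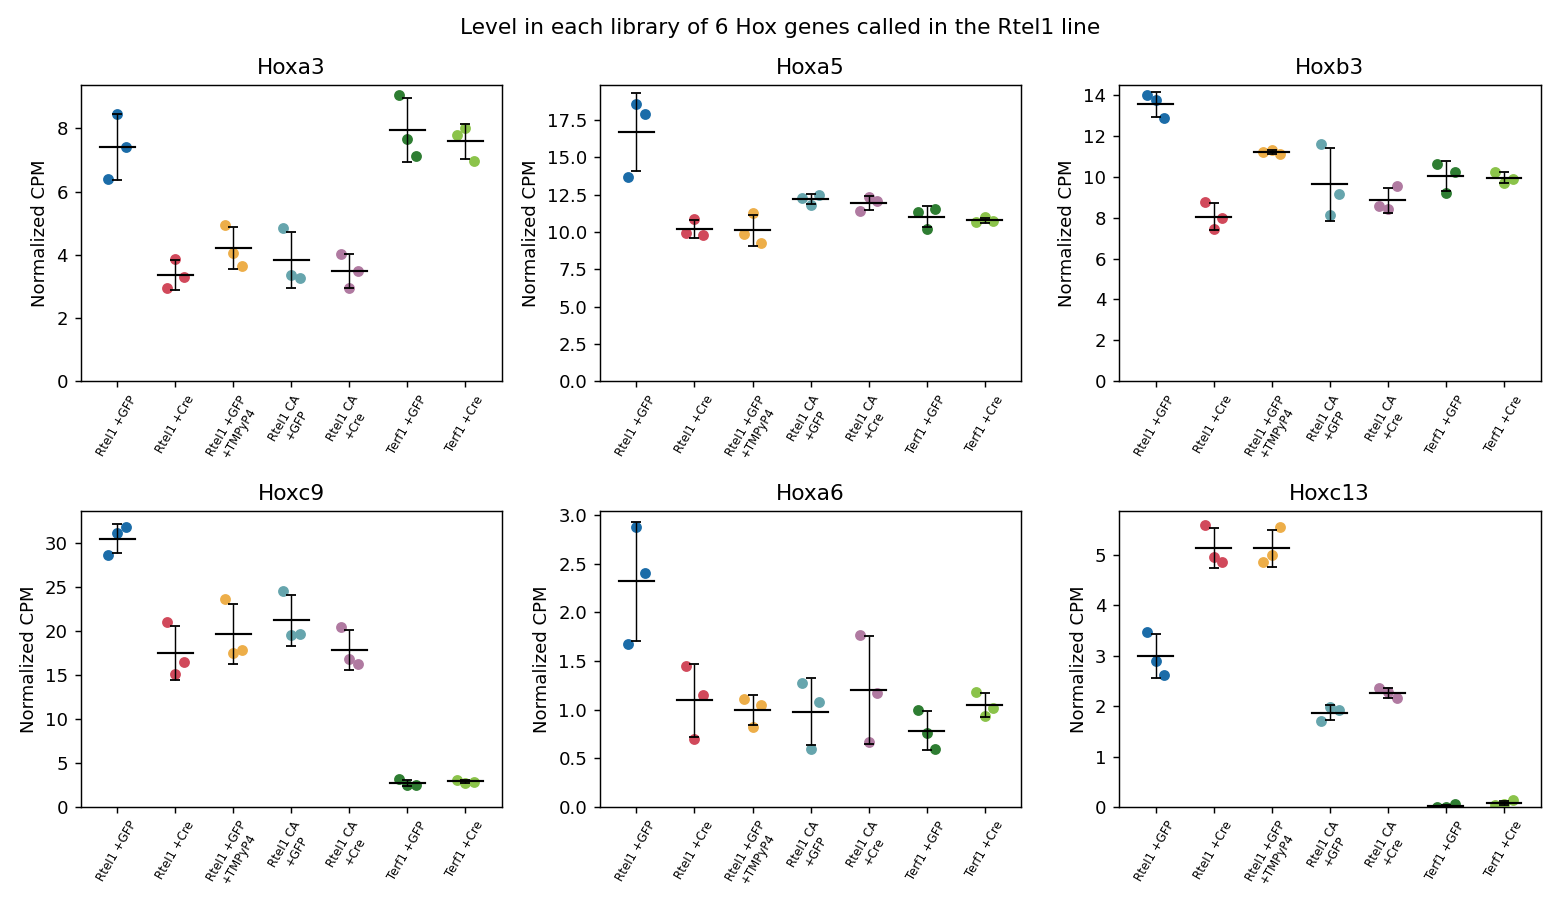
Normalized CPM of Hoxa3, Hoxa5, Hoxb3, Hoxc9, Hoxa6 and Hoxc13 in each library of the 7 groups (points), with the mean (line) and SD (bars, n = 3). For Hoxa3, Hoxa5, Hoxb3 and Hoxc9 the 3 Rtel1 +GFP libraries lie above all other libraries of the Rtel1 line, and for Hoxa6 above all but 1 Rtel1 CA +Cre library (1.76 against a lowest 1.67 CPM), whereas Hoxc13 is highest in the Rtel1 +Cre and Rtel1 TMPyP4 groups.

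For the G4 ligand, 11 of 36 Hox genes were called in Rtel1 TMPyP4 against +GFP, 2 higher and 9 lower, or 30.6%, where 30% of all genes were called (16.6% higher and 13.4% lower). Of the genes that passed in the Rtel1 line alone, 11 of 28 Hox genes (39.3%) and 31.2% of all genes were called. The median log2 fold change was −0.22, beside −0.01 over all genes. This comparison shares its control libraries with Rtel1 +Cre against +GFP, so the values of the pair are given side by side and not correlated.

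The largest fall among the genes called was that of Hoxd8, which had 0.757, 0.863 and 0.801 CPM in Rtel1 +GFP and 0.285, 0.361 and 0.358 CPM with TMPyP4 (−1.25 ± 0.24, SE, adjusted p = 0.000397 by edgeR), beside −0.81 in Rtel1 +Cre. Hoxd8 is below 1 CPM, at 9, 15 and 15 counts with TMPyP4. Hoxa6 had 1.11, 0.819 and 1.05 CPM with TMPyP4 (−1.23 ± 0.33, adjusted p = 0.00581), beside −1.08 in Rtel1 +Cre. Both groups of values lay wholly below those of Rtel1 +GFP. Hoxc11, which was not called, had the larger difference (−1.41 ± 0.52, adjusted p = 0.0414 by edgeR), from 21, 31 and 23 counts to 12, 7 and 3. The Hoxa6 call was lost in 5 of the 6 fits that left out 1 library, and the Hoxd8 call in 0 of them.

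The promoters of Hoxd8 and Hoxa6 are shown because they are the pair of Hox genes called with a log2 fold change below −1 for the G4 ligand. The windows are chr6:52208623-52208922 on the minus strand for Hoxa6 and chr2:74704365-74704664 on the plus strand for Hoxd8, from RefSeq on GRCm38.p6 and with the G4 pattern in capitals as above.
Hoxa6: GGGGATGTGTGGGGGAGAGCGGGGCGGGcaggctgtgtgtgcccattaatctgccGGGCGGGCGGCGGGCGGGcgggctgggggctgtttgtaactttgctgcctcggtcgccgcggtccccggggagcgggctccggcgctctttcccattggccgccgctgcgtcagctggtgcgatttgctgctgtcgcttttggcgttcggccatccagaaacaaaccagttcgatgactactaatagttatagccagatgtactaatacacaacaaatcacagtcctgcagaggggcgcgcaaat
Hoxd8: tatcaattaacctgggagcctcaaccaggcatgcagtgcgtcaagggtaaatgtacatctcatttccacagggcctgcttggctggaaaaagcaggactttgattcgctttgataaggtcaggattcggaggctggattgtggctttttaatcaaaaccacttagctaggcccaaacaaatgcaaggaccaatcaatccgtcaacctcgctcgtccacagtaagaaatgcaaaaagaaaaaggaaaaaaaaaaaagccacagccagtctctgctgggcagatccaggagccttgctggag
The pattern was found in the Hoxa6 window, on the gene's strand, and not in the Hoxd8 window. Of the other genes called with TMPyP4, Hoxa3, Hoxa5 and Hoxb8 had a window, without the pattern.

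Hoxa3 had 4.95, 4.07 and 3.65 CPM with TMPyP4 against 6.39, 8.47 and 7.41 CPM (−0.82 ± 0.17, adjusted p = 0.000827 by edgeR), beside −1.14 in Rtel1 +Cre. Hoxa5 had 9.83, 11.2 and 9.24 CPM against 13.7, 18.5 and 17.9 CPM (−0.72 ± 0.10, adjusted p = 2.17e-05), beside −0.71. Hoxc9 had 23.6, 17.5 and 17.9 CPM against 28.6, 31.1 and 31.8 CPM (−0.64 ± 0.14, adjusted p = 0.00145), beside −0.80. All 3 genes had every TMPyP4 library below every control library. Hoxb5 (−0.52 ± 0.14), Hoxb6 (−0.44 ± 0.12), Hoxb8 (−0.42 ± 0.09) and Hoxc6 (−0.34 ± 0.08) fell by less. The calls of Hoxb5, Hoxb6 and Hoxc6 were each lost without Rtel1 +GFP replicate 2 or 3 or TMPyP4 replicate 2 or 3, and that of Hoxc9 without TMPyP4 replicate 2 or 3. Without these libraries, each left out alone, 5 or 6 Hox genes were called, where 17.8% to 21.5% of all genes were called.

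Among the genes that rose was Hoxc13, with 4.85, 4.99 and 5.54 CPM (0.78 ± 0.18, adjusted p = 0.0018 by edgeR). The Hoxc13 call was lost without Rtel1 +GFP replicate 2 or 3 or TMPyP4 replicate 3. With Rtel1 CA +GFP as the control, 5 Hox genes were called, 3 higher and 2 lower, where 17% of all genes were called. Hoxc13 (1.46 ± 0.18), Hoxb8 (−0.38 ± 0.09) and Hoxd8 (−1.24 ± 0.24) were called in the same direction with both controls, and Hoxa10 (0.64 ± 0.13) and Hoxc10 (0.51 ± 0.10) with this control alone. The differences of Hoxa3 and Hoxc6 changed sign, to 0.14 and 0.13. The summed fibroblast markers were 6414 to 9464 CPM with TMPyP4, and 6 of 9 markers were lower than in Rtel1 +GFP; their part in these differences was not tested.

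The treatments were also compared directly, without the shared controls. In Rtel1 +Cre against TMPyP4, 2 of 36 Hox genes were called, both lower in Rtel1 +Cre, or 5.56%, where 15.2% of all genes were called (6.13% higher and 9.09% lower). Hoxb9 had 120, 138 and 123 CPM in Rtel1 +Cre and 159, 183 and 167 CPM with TMPyP4 (−0.42 ± 0.08, adjusted p = 0.00133 by edgeR). Hoxb3 had 8.74, 7.42 and 7.97 CPM against 11.2, 11.3 and 11.1 CPM (−0.48 ± 0.11, adjusted p = 0.00284). Same-numbered libraries of these groups deviated together, and with replicate number as a block the count was again 2, where 20.7% of all genes were called. With only these groups in the fit the count was 0, where 7.46% of all genes were called. The count was 0 or 1 without Rtel1 +Cre replicate 2 or 3 or TMPyP4 replicate 1 or 2 (10.2% to 12% of all genes).

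**Figure D4:**
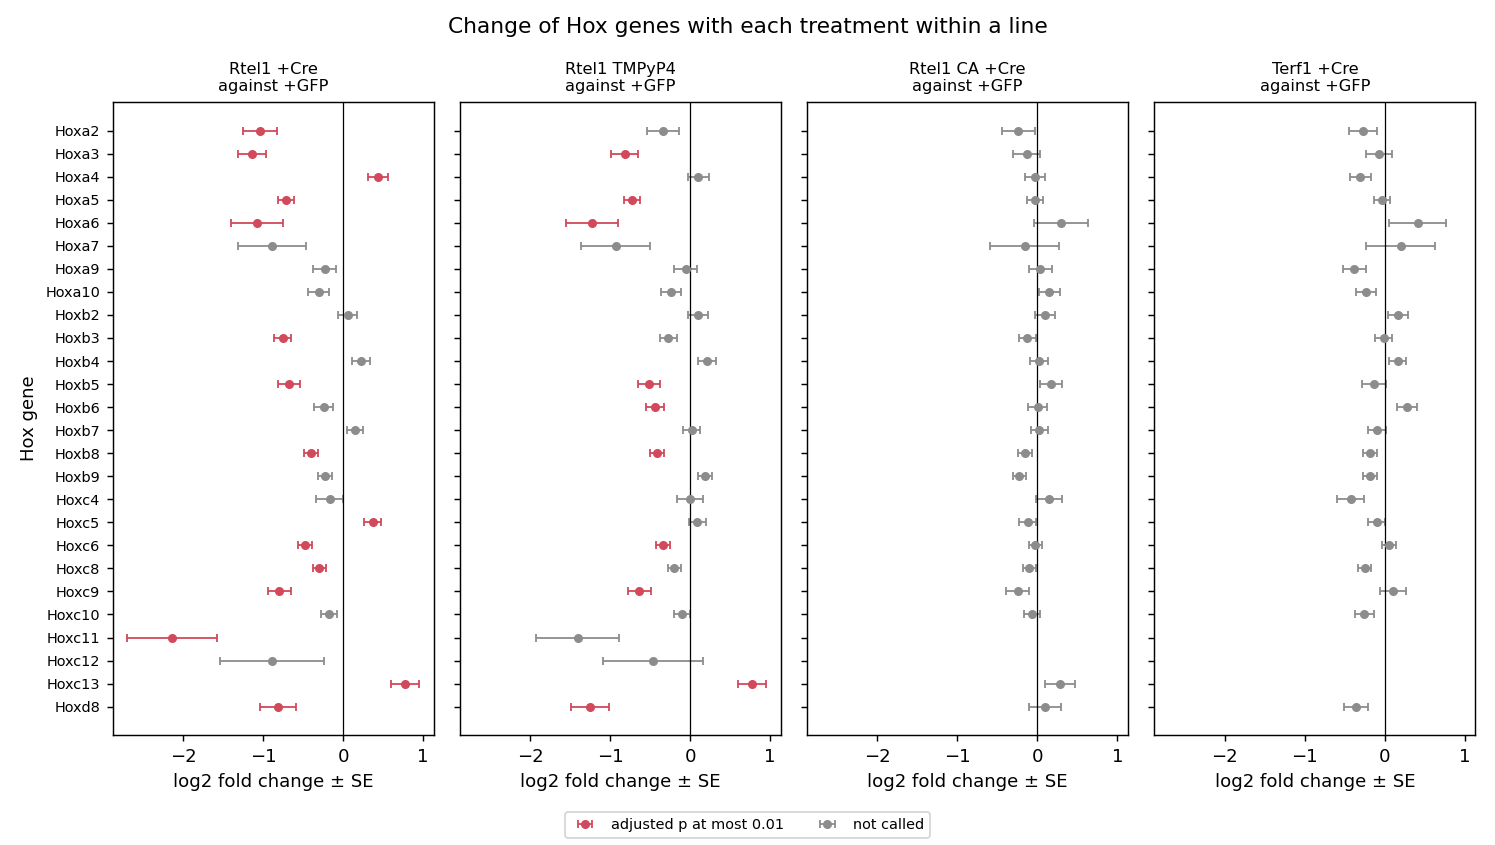
Log2 fold change with SE of 26 Hox genes in the 4 treatment comparisons within a line. A gene is drawn in a panel if its mean reached 0.3 CPM in 1 of the groups compared. Red points passed an adjusted p of at most 0.01, and they occur in the Rtel1 +Cre and Rtel1 TMPyP4 panels, which share their control libraries, and not in the Rtel1 CA or Terf1 panels.

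Cre had no called effect on Hox genes in the other settings. In Rtel1 CA +Cre against +GFP, 0 of 36 were called by edgeR and 0 by DESeq2, where edgeR called 1.09% of all genes (0.525% higher and 0.569% lower). DESeq2 called 2.46% of all genes there. At an unadjusted p under 0.05 by edgeR there were 3 Hox genes. They included Hoxb9 (−0.23 ± 0.08, 95% interval −0.40 to −0.05) and Hoxa11 (−1.0 ± 0.40, from 9, 6 and 12 counts to 4, 6 and 4). In Terf1 +Cre against +GFP, 0 of 36 were called by edgeR and 0 by DESeq2, where edgeR called 3.42% of all genes (2.65% higher and 0.765% lower). DESeq2 called 4.65% of all genes there. At an unadjusted p under 0.05 by edgeR there were 10 Hox genes. Among them were Hoxc8 (−0.25 ± 0.09, 95% interval −0.43 to −0.07), Hoxa9 (−0.38 ± 0.14), Hoxc4 (−0.42 ± 0.17) and Hoxd12 (−0.31 ± 0.12). The share of all genes at that unadjusted threshold was not counted, so the 3 and the 10 have no background beside them. In the Terf1 line the median over the 36 genes was −0.12, beside 0.00 over all genes. Hoxd13, the main Hox gene of the Terf1 line, had 117, 134 and 142 CPM before and 118, 133 and 113 CPM after Cre, which overlap.

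Whether the effect of Cre differed between settings was tested as a difference of differences. Against the Rtel1 CA setting, 5 Hox genes differed, all towards lower values in the Rtel1 setting, or 13.9%, where 25.1% of all genes were called (12.8% higher and 12.3% lower). They were Hoxa3 (−1.01 ± 0.24), Hoxb5 (−0.85 ± 0.19), Hoxa5 (−0.68 ± 0.14), Hoxb3 (−0.63 ± 0.15) and Hoxc6 (−0.45 ± 0.12), with adjusted p from 0.00115 to 0.00549 by edgeR. With replicate number as a block there were 9, all lower, where 33.5% of all genes were called. Without Rtel1 +GFP replicate 2 there were 3, where 17% of all genes were called. Against the Terf1 line, 7 Hox genes differed, 2 towards higher and 5 towards lower values in the Rtel1 line, or 19.4%, where 30.2% of all genes were called (15.8% higher and 14.5% lower). Hoxa4 (0.74 ± 0.18) was among those towards higher values, and those towards lower values were Hoxa3 (−1.07), Hoxc9 (−0.90), Hoxb3 (−0.74), Hoxa5 (−0.68) and Hoxc6 (−0.53). All these tests include the Rtel1 +GFP libraries.

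The cofactor lists were read in the treatment comparisons as well, beside 22% of all genes higher and 21% lower in Rtel1 +Cre and 16.6% and 13.4% with TMPyP4. In Rtel1 +Cre against +GFP, 1 of 9 TALE cofactors was higher, Pbx3 (0.43 ± 0.06), and 4 were lower, among them Pknox2 (−0.94 ± 0.09, 7.50 against 14.4 CPM). With TMPyP4 Pknox2 also fell (−0.37 ± 0.09, 11.1 CPM), and 2 cofactors were higher and 3 lower. Pknox2 had 8.65 CPM in Rtel1 CA +GFP. Of 17 Polycomb genes 4 rose and 6 fell in Rtel1 +Cre, with Suz12 (0.61 ± 0.11) and Cbx2 (−1.06 ± 0.12) at the ends, and 3 rose and 2 fell with TMPyP4. Of 10 Trithorax genes 3 rose and 2 fell in Rtel1 +Cre, with Dpy30 (0.75 ± 0.07) and Kmt2a (−0.53 ± 0.16) at the ends. Of the 10 cluster RNAs tested, 0 were called by edgeR in either comparison, with 3 in Rtel1 +Cre and 0 with TMPyP4 at an unadjusted p under 0.05. The share of all genes at that unadjusted threshold was not counted, here or with the other control. Of 14 retinoic acid genes tested 3 rose and 6 fell in Rtel1 +Cre, and 4 rose and 3 fell with TMPyP4. Of 21 limb and axial factors 0 rose and 8 fell in Rtel1 +Cre, among them Pax9 (−1.12 ± 0.11), and 1 rose and 5 fell with TMPyP4. With Rtel1 CA +GFP as the control fewer members of these lists were called for Rtel1 +Cre, where 3.8% of all genes were higher and 3.95% lower. There were 1 higher and 2 lower for the TALE cofactors, 1 and 2 for retinoic acid and 1 and 4 for the limb and axial factors. For the Polycomb and Trithorax genes and the cluster RNAs 0 were called by edgeR with this control, with 4, 3 and 1 at an unadjusted p under 0.05. For TMPyP4 with this control, where 9.94% of all genes were higher and 7.07% lower, the counts were 2 higher and 1 lower for the TALE cofactors, 3 and 1 for Polycomb, 0 and 1 for Trithorax, 2 and 1 for retinoic acid, 2 and 2 for the limb and axial factors and 0 and 1 for the cluster RNAs.

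The spread between libraries was not alike for all Hox genes. Over the Hox genes above 1 CPM, the median coefficient of variation in a group was between 7.09% and 9.49%, and over all genes between 6.64% and 9.98%. Hoxa7, a thoracic gene, stood out, with 11.52, 4.23 and 6.12 CPM in Rtel1 CA +GFP and 10.5, 3.78 and 5.30 CPM in Rtel1 CA +Cre. Its replicate 1 was the highest in 6 of the 7 groups, Rtel1 +GFP being the exception, and its coefficient of variation reached 53.9%. In Rtel1 +Cre, with 7.60, 2.83 and 5.92 CPM, Hoxa7 lay wholly below the 9.35, 10.1 and 10.9 CPM of Rtel1 +GFP but was not called (−0.89 ± 0.43, adjusted p = 0.0907).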

How the data were processed

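RNA sequencing of 21 fibroblast libraries was used. The authors trimmed reads with cutadapt 1.9.1, aligned them to mm10 with STAR 2.5.2a and deposited RSEM 1.3.0 expected counts and TPM per gene in 1 table; per the labels' processing notes DESeq2 1.28.0 was also used. TPM is per transcript length but without TMM factors, so it was compared as shares within a library. The deposited expected counts were rounded to whole numbers, genes were filtered with edgeR's filterByExpr over the 7 groups, scaled with TMM factors and fitted in 1 quasi-likelihood model over all 21 libraries (edgeR 4.0.16, R 4.3.3, 14 residual degrees of freedom before moderation), with Benjamini-Hochberg adjustment over the 13719 genes tested. Calls used an adjusted p threshold of 0.01. The code was tested on simulated counts. A few genes stayed in the fit and in the counts of genes but are not reported here by name.

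Where a group held 0 counts, 3 counts over the group stood in for it and the fold is a lower bound; with 1 to 3 counts the ratio has an exact 95% interval for counting error. In each comparison up to 6 called Hox genes per direction, with a mean of at least 1 CPM in 1 group, were chosen by the size of the change. Not all of them were given with every statistic. Hoxd8 and Hoxa7 were described although outside this rule in some comparisons, chosen after their values were seen. The spans of 10 Hox genes overlap another Hox gene, and the division of reads between them rests on RSEM. The Hox genes and the other gene lists were chosen with earlier results of these data known. Same-numbered libraries deviated together (correlation over 0.1 for each of the 3 numbers, 11840 genes) for Rtel1 +Cre with TMPyP4 and Rtel1 CA +Cre with +GFP. For Terf1 +GFP with Rtel1 CA +GFP each same-numbered correlation was also over 0.1, the lowest being 0.263. Libraries of different number reached 0.655 there, so the numbers did not pair these libraries. Alternatives were DESeq2 1.42.0, its size factors, no filter, other thresholds, a replicate block, only the groups compared, and each library left out. Further choices of libraries were added after the data were seen: Rtel1 CA +GFP as the control, and +Cre libraries for the comparison of lines.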

Additional observations from a re-analysis of the deposited data

Results flagged for a closer look

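The effect of Cre on 5 Hox genes differed between Rtel1f/f cells with and without the transduced mutant, by the test of the difference itself in edgeR, or 13.9% of the 36 tested, where 25.1% of all genes were called. As log2 differences (Rtel1 minus Rtel1 CA) they were −1.01 for Hoxa3, −0.68 for Hoxa5, −0.63 for Hoxb3, −0.85 for Hoxb5 and −0.45 for Hoxc6. The Hoxa3 call was lost in 5 of the 12 fits that left out 1 library and the Hoxc6 call in 7. With only the groups compared 2 of the 5 were called, where 16.9% of all genes were called. Between the Rtel1 and Terf1 lines 19.4% of the Hox genes tested differed by the same test (Rtel1 minus Terf1), where 30.2% of all genes were called, with −1.07 for Hoxa3, 0.74 for Hoxa4, −0.68 for Hoxa5, −0.74 for Hoxb3, −0.53 for Hoxc6 and −0.90 for Hoxc9. Of these calls that of Hoxa4 was lost in 4 of the 12 fits that left out 1 library. Both sets rest on the same Rtel1 +GFP and Rtel1 +Cre libraries, and the Rtel1 +GFP libraries stood apart from the rest of their line. Groups of 3 libraries were not searched for single outlying samples.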

How the results depend on the processing

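Over 82 results for single genes, 868 values under the alternatives kept their direction and side of the threshold, 135 lost the call and 7 changed sign; the cause was not tested. Percentages in brackets below are the share of all genes called in the same setting. With a log2 fold change of at least 1 the counts of Hox genes called were 3 for Rtel1 CA +GFP against Rtel1 +GFP (13.5%), 4 for Rtel1 +Cre (12.3%), 2 for TMPyP4 (6.71%) and 0 for Rtel1 +Cre against TMPyP4 (3.4%). There was 1 for each difference of Cre effects (8.92% against Rtel1 CA and 11.4% against Terf1). At an adjusted p of 0.05 those differences had 10 (against Rtel1 CA, 38.1%) and 12 (against Terf1, 43%). With only the groups compared, which also tested fewer genes, there were 10 for Rtel1 +Cre (34.4%) and 0 for Rtel1 +Cre against TMPyP4 (7.46%). For the Cre effect against Rtel1 CA there were 2 (16.9%). With Rtel1 CA +GFP as control, Rtel1 +Cre had 6 (7.76%) and TMPyP4 5 (17%). The signs turned for Hoxa6 (0.15), Hoxc5 (−0.0016) and Hoxc11 (0.090) in the former and Hoxa3 (0.14) and Hoxc6 (0.13) in the latter. With +Cre libraries for the comparison of lines, Hoxa5 (0.079) and Hoxb3 (0.31) turned. Leaving out 1 library gave 28 to 29 for Terf1 +GFP against Rtel1 +GFP (48% to 51.3%) and 23 to 24 against Rtel1 CA +GFP (52.8% to 55.4%). It gave 7 to 11 for Rtel1 CA +GFP (35.2% to 43.4%), 10 to 14 for Rtel1 +Cre (34% to 41.6%) and 5 to 11 for TMPyP4 (17.8% to 29.7%). Rtel1 +Cre against TMPyP4 had 0 to 2 (10.2% to 12%). The Cre effects had 3 to 6 against Rtel1 CA (17% to 26.6%) and 6 to 8 against Terf1 (21.9% to 30.8%).

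The replicate block moved the count for the Cre effect against Rtel1 CA from 5 to 9, and the share of all genes from 25.1% to 33.5%. Where the numbers paired the libraries, the block left the count at 2 for Rtel1 +Cre against TMPyP4 (20.7%). It stayed at 0 for Rtel1 CA +Cre against +GFP (1.57%). For Terf1 +GFP against Rtel1 CA +GFP, whose numbers did not pair the libraries, the block left the count at 24 (64.9%). Genes near 0 counts allow no estimate of a change beyond the bounds given.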
